A study of Mus musculus with 4 samples.

Results

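The genes described here are 51 ligands, receptors and intracellular partners of axon guidance, from the Slit-Robo, netrin, semaphorin-plexin and ephrin-Eph families. They were taken by name from the list of 56748 genes that the count tables cover, and all 51 had counts. Single-nuclei RNA was measured in hippocampus of male mice, in 8 pools of 3 mice each, with nuclei isolated 14 h after repeated social defeat (RSD, by a CD-1 aggressor mouse in the home cage; "stress") or from undisturbed controls. In the diet experiment, C57BL/6 mice ate chow with PLX5622, an inhibitor of the CSF1 receptor that removes microglia, or vehicle chow (undisturbed pools Control-Vehicle and Control-PLX5622, defeated pools Stress-Vehicle and Stress-PLX5622). In the genotype experiment, Cre driven by Vglut2 (Slc17a6) deleted Il1r1 in glutamatergic neurons (Con-nIL-1R1-/- and Stress-nIL-1R1-/-), and Cre-negative mice were the IL-1R1+/+ controls (Con-IL-1R1+/+ and Stress-IL-1R1+/+). The promoter restricts the deletion to cells that use, or once used, Vglut2, so other cells keep the gene. Each condition was 1 pool, and pooling removes the differences between the 3 mice.

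Axon guidance cues are secreted or membrane-bound proteins that attract or repel growing axons. Slits bind Robo receptors, netrin-1 binds DCC and the UNC5 receptors, semaphorins act through plexins, with neuropilins as co-receptors of the secreted class 3 members, and ephrins act on Eph receptor tyrosine kinases of neighbouring cells. The intracellular Srgap proteins are GTPase activators that bind Robo. In the adult hippocampus many of these genes continue to be transcribed and are known for roles at synapses and in blood vessels and the oligodendrocyte lineage.

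After nuclei with over 20% mitochondrial UMIs (unique transcripts) were left out, 56834 of 57350 nuclei remained. The pools held 7534594 to 58081835 UMIs, and the median nucleus had from 598 (Control-PLX5622) to 5012 UMIs (Con-nIL-1R1-/-). Depth therefore differed within pairs of pools, with 2563 against 1326 UMIs per nucleus in Control-Vehicle and Stress-Vehicle. Nuclei were clustered without the 51 genes and named from marker genes, and each name ends in "-like". Named classes held 45627 nuclei, and 11207 in 6 clusters were left unnamed. Several classes come from outside the labelled hippocampus: 1556 of 2383 thalamic or midbrain-like nuclei were in Con-IL-1R1+/+, and 253 of 270 medium spiny-like nuclei were in Stress-IL-1R1+/+. No nucleus barcode was shared between pools. The targeted gene Il1r1 was lower in DG-like nuclei of nIL-1R1-/- pools (11.4 and 9.2 CPM, counts of UMIs scaled to the same total for the class in each pool, against 61 and 29.8 CPM in IL-1R1+/+ pools). Microglia-like nuclei numbered 7 and 9 in the PLX5622 pools against 152 to 199 in the others, and Csf1r was listed at 0 UMIs in them.

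RNA of neuronal genes was counted in every glial class. Syt1, a synaptic vesicle gene of neurons, had a median of 2842 CPM in CA1-like nuclei, 2389 CPM in microglia-like and 2018 CPM in oligodendrocyte-like nuclei. The share of the whole-pool level was lower in OPC-like (oligodendrocyte precursor, 58.9%) and astrocyte-like nuclei (59.6%), and was 27.6% in endothelial-like nuclei. Whether this RNA was free in the suspension or came from doublets was not tested. A member in a glial class was read as background unless it stood above its level in the whole pools. Levels are given as the median CPM with the lowest and highest pool that had at least 20 nuclei of the class, and classes are ranked only where at least 4 pools had that many, which leaves VLMC-like, ependymal-like, medium spiny-like and cerebellar granule-like nuclei out of the ranking. Genes are not ranked against each other, since longer genes yield more nuclear RNA.

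**Figure D1:**
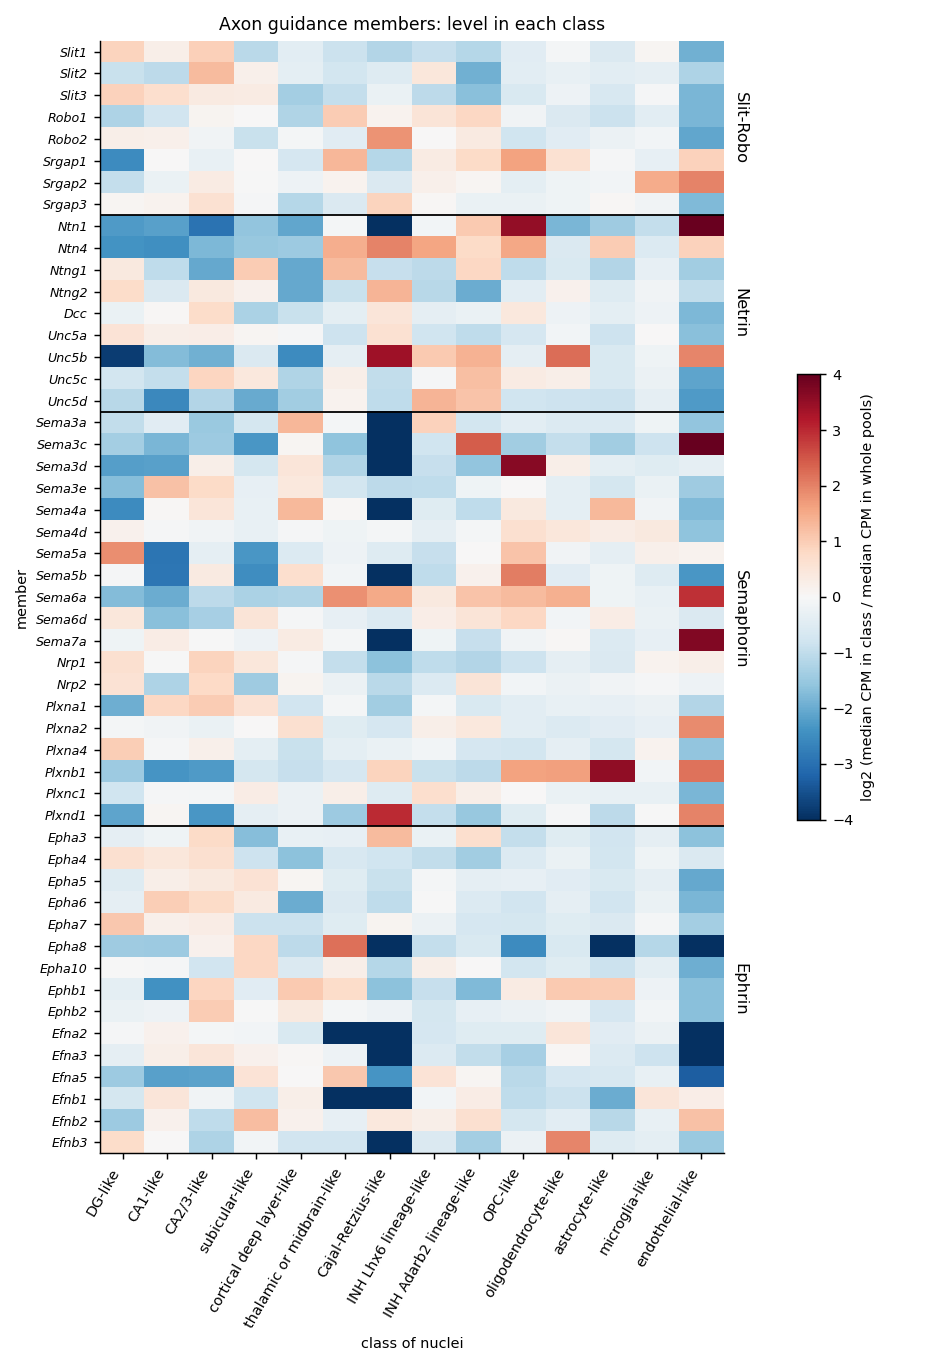
Heat map of the 51 genes (rows, by family) in 14 classes of nuclei (columns). Colour is the log2 ratio of the median CPM in the class to the median CPM in whole pools, drawn at 4 or -4 where it lies beyond those limits, so red is above the whole-pool level; the strongest reds are in the endothelial-like, OPC-like, Cajal-Retzius-like and astrocyte-like columns (Sema3c, Sema3d, Unc5b, Plxnb1).

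Among ranked classes, secreted Slit ligands were highest in principal neurons. Slit3 had its highest level in DG-like nuclei (3366 CPM, range 2769 to 3606) and was next in CA1-like nuclei (2791 CPM, range 2211 to 2952), with DG above CA1 in 8 of 8 pools. Slit1 was at 881 CPM (722 to 1115) in CA2/3-like and 859.6 CPM (694 to 1079) in DG-like nuclei, and was higher in CA2/3-like nuclei in 7 of 8 pools, although the ranges overlap. Slit2 led among ranked classes in CA2/3-like nuclei (401 CPM, 174 to 433), above INH-like nuclei of the Lhx6 lineage (inhibitory neurons, 224 CPM, 148 to 259) in 8 of 8 pools. In ependymal-like nuclei, which were not ranked, Slit2 was at a like level, 380.4 and 419 CPM in the 2 pools with enough nuclei. The leading ranked class thus differed between Slit3 and Slit2.

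The Robo receptors were highest elsewhere. Robo2 stood at 1838 CPM (1528 to 2861) in Cajal-Retzius-like nuclei, the reelin-secreting neurons of the molecular layers, and at 676 CPM (453 to 838) in the next class, INH-like nuclei of the Adarb2 lineage. The ranges of these classes did not overlap, over the 7 pools with enough nuclei. Robo1 was at 1676 CPM (780.5 to 2176) in thalamic or midbrain-like and 1484 CPM (1236 to 2056) in Adarb2 lineage nuclei, and each was the higher in 4 of 8 pools. Of the Robo-binding partners, Srgap1 was highest among ranked classes in OPC-like nuclei (339 CPM, 227 to 556), and was at 746 CPM in the medium spiny-like nuclei of Stress-IL-1R1+/+. Srgap2 was highest in endothelial-like (1132 CPM, 804 to 1315) and microglia-like nuclei (794 CPM, 465 to 1061), against a whole-pool median of 286 CPM. Srgap3 was highest in Cajal-Retzius-like nuclei (1220 CPM, 1071 to 2253).

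Netrin-1 and its receptors had different leading classes. Ntn1, the secreted netrin, had 2044 UMIs in all, and was highest among ranked classes in endothelial-like (161 CPM, 84.8 to 253) and OPC-like nuclei (117 CPM, 64.9 to 218), against 10.3 CPM in whole pools. In VLMC-like nuclei (vascular and leptomeningeal cells), which were not ranked, it was at 98.9 and 783 CPM in the 2 pools with enough nuclei. Dcc, the receptor for attraction to netrin, was highest among ranked classes in CA2/3-like nuclei (1933 CPM, 1220 to 2375). It was at 2096 CPM in the medium spiny-like nuclei of Stress-IL-1R1+/+ and 2770 CPM in unnamed cluster 16, led by Kcnh8 and Sntb1. OPC-like nuclei, with Ntn1, also had Dcc above the whole-pool level (1553 CPM, 1064 to 1787, against 1168 CPM). Unc5c and Unc5d, receptors for repulsion, were highest in INH-like nuclei, Unc5c in the Adarb2 lineage (1529 CPM, 1268 to 1795) and Unc5d in the Lhx6 lineage (1215 CPM, 891 to 1464). Unc5b was at 121 CPM (0 to 203) in Cajal-Retzius-like nuclei, on 78 UMIs, at 54.1 CPM (20.4 to 76.7) in oligodendrocyte-like nuclei, and at 62 and 328 CPM in 2 pools of cerebellar granule-like nuclei. Unc5a hardly differed between its leading classes, Cajal-Retzius-like (165 CPM, 96.7 to 316) and DG-like (157 CPM, 122 to 210.5).

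The netrin-G genes encode GPI-anchored synaptic proteins that do not bind DCC. Ntng1 was at 783 CPM (359.8 to 1710) in thalamic or midbrain-like and 661 CPM (465 to 724) in subicular-like nuclei. Ntng2 was highest in Cajal-Retzius-like (301 CPM, 102 to 582) and DG-like nuclei (193 CPM, 156 to 231). Ntn4, a netrin of basement membranes, had 1660 UMIs and did not exceed 25.3 CPM as the median of any ranked class. It was at 182 and 298 CPM in 2 pools of cerebellar granule-like nuclei, whose top 10 genes include it.

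Among semaphorins, the clearest class patterns were in non-neuronal nuclei. Sema3c, a secreted ligand, was at 719.9 CPM (436 to 1194) in endothelial-like nuclei and 98 CPM (66.4 to 149) in the next class, a ratio of 7.35. Sema7a, a GPI-anchored ligand of integrins and plexin C1, was at 394 CPM (342 to 587) in endothelial-like nuclei and 38.1 CPM (26.1 to 56.6) in the next class. Sema3d was at 121 CPM (96.8 to 220.4) in OPC-like nuclei and 13.5 CPM (5.72 to 28.9) next, in cortical deep layer-like nuclei. For each of these genes no pool of the leading class overlapped the next class.

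Transmembrane semaphorins divided between precursors, vessels and neurons. OPC-like nuclei had the highest levels of Sema5b (247 CPM, 181 to 326), Sema6d (809 CPM, 623 to 1062) and Sema4d (158 CPM, 80 to 281), among ranked classes. Sema5b was higher in unnamed cluster 16 (438 CPM), Sema6d in unnamed cluster 12 (1096 CPM, 904 to 1207; led by Tshz2) and Sema4d in 2 pools of cerebellar granule-like nuclei (155 and 182 CPM). Sema6a was highest in endothelial-like nuclei (359 CPM, 337 to 559.5). Sema5a was highest in DG-like nuclei (790.3 CPM, 595 to 871) and was also above the whole-pool level in OPC-like nuclei (479 CPM, 302 to 590.0). Of the secreted neuronal ligands, Sema3e was highest in CA1-like nuclei (270.0 CPM, 138 to 304), above CA2/3-like nuclei in 8 of 8 pools. Sema3a was low in ranked classes, with 27.9 CPM (18.8 to 40.9) in cortical deep layer-like nuclei. It was at 38.5 CPM in unnamed cluster 7 and 104 CPM in the medium spiny-like nuclei of Stress-IL-1R1+/+. In VLMC-like nuclei, which were not ranked, Sema3a was at 28.3 and 68.1 CPM in the 2 pools with enough nuclei. With VLMC-like nuclei of all pools summed it was at 349.5 CPM, on 123 UMIs. Sema4a was at 49.7 CPM in both cortical deep layer-like and astrocyte-like nuclei.

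The semaphorin receptors followed neuron class less sharply. Plxna4, which with neuropilin-1 transduces Sema3a, was highest in DG-like nuclei (2026 CPM, 1482 to 2325) and above CA2/3-like nuclei (1175 CPM, 832 to 1350) in 8 of 8 pools. Nrp1 (575 CPM, 403 to 604), Nrp2 (186 CPM, 155 to 221) and Plxna1 (134 CPM, 110.1 to 202) were highest among ranked classes in CA2/3-like nuclei, each within 1.19-fold of the next class, and Nrp2 was higher in unnamed cluster 16 (253 CPM, 219 to 276). Plxna2 was highest in endothelial-like nuclei (899.9 CPM, 474 to 1221), Plxnb1, a receptor of Sema4d, in astrocyte-like nuclei (106 CPM, 74.8 to 158; 56.5 and 170.2 CPM in 2 pools of VLMC-like nuclei), and Plxnc1, the receptor of Sema7a, in Lhx6 lineage nuclei (117 CPM, 76.8 to 124). Plxnd1, the receptor of Sema3e, was at 133 CPM (0 to 316) in Cajal-Retzius-like, 66.5 CPM (59.6 to 127) in endothelial-like and 79.9 CPM in unnamed cluster 7, led by Igfn1 and Cpa6 and with Plxnd1 itself among its top 10 genes.

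Eph receptors were mainly neuronal. Epha6 was highest in CA1-like nuclei (4353 CPM, 2725 to 5796), then in CA2/3-like nuclei (3678 CPM, 2257 to 4249), in that order in 8 of 8 pools. Epha7 was highest in DG-like nuclei (575 CPM, 391 to 729), Ephb2 in CA2/3-like (348 CPM, 247 to 428), and Epha5 (871 CPM, 606 to 1166) and Epha10 (243 CPM, 146 to 439) in subicular-like nuclei. Epha4 was at 490.3 CPM (280.5 to 638) in CA2/3-like and 483 CPM (305 to 568) in DG-like nuclei, and Epha3 at 423 CPM (181 to 684) in Cajal-Retzius-like nuclei. Ephb1 was at nearly the same level in oligodendrocyte-like (363 CPM, 311 to 591) and cortical deep layer-like nuclei (361 CPM, 235 to 496), and was at 689.6 CPM in the medium spiny-like nuclei of Stress-IL-1R1+/+. Epha8 had 961 UMIs in all, with 22.2 CPM (0 to 70.6) in thalamic or midbrain-like nuclei and 27.5 CPM in those medium spiny-like nuclei.

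Most ephrin ligands were rare. Efna5 was highest among ranked classes in thalamic or midbrain-like (314 CPM, 137 to 354) and subicular-like nuclei (219.7 CPM, 107 to 293), below unnamed clusters 7 (373 CPM) and 16 (322 CPM). Efnb2, known as a marker of arterial endothelium, was at 69.4 CPM (39.9 to 85.1) in subicular-like, 66.5 CPM (7.45 to 94.1) in endothelial-like nuclei and 70.4 CPM in unnamed cluster 12. Efnb3, known as an inhibitor of axon growth in myelin, was at 40.2 CPM (27.3 to 50.9) in oligodendrocyte-like nuclei and 17.3 CPM (10.7 to 26) in the next class. Efnb1, Efna2 and Efna3 had 490, 701 and 1451 UMIs over all nuclei and no ranked class above 9.83 CPM. By the highest median among ranked classes, CA2/3-like nuclei led for 9 of the 51 genes, Cajal-Retzius-like for 8, endothelial-like for 6 and OPC-like for 5, and in 22 of 51 the leading class was above the second in every pool compared. The same counts were not made over all genes, so they are not read as traits of these genes. In Cajal-Retzius-like nuclei the leads of Ntn4, Plxnd1 and Unc5b rest on 16, 62 and 78 UMIs, each with 0 CPM in the lowest pool. Genes named as leading a class were the 2 with the highest ratio to any other class. In microglia-like nuclei these were Sema4d and Srgap2, at ratios of only 0.836 and 0.701, so no member was highest there.

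**Figure D2:**
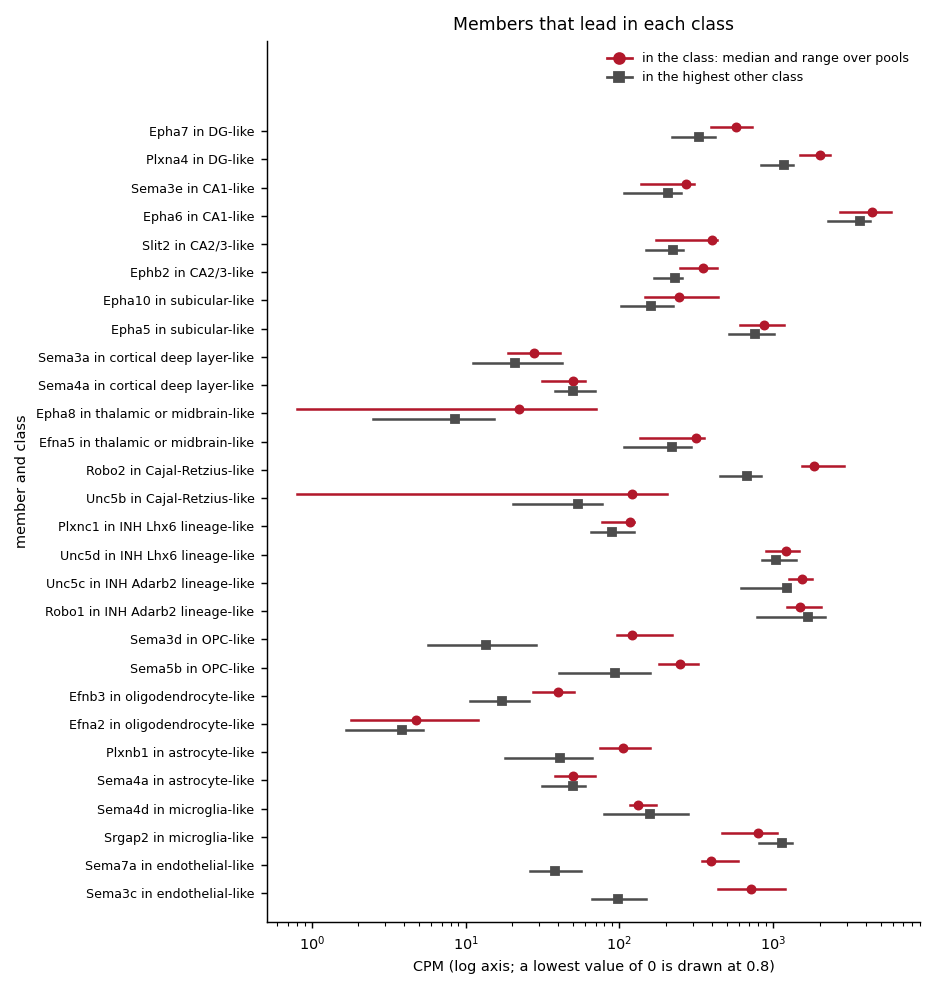
CPM on a log axis for the 2 members with the highest ratio to any other class in each of 14 classes. The highest other class was above the class shown for Sema4d and Srgap2 in microglia-like nuclei and Robo1 in Adarb2 lineage nuclei. Red shows the class (circle, median over pools; line, lowest to highest pool) and grey the highest other class; red and grey lines are apart for Sema7a and Sema3c in endothelial-like, Sema3d and Sema5b in OPC-like, Plxnb1 in astrocyte-like, Efnb3 in oligodendrocyte-like, Robo2 in Cajal-Retzius-like, Plxna4 in DG-like and Unc5c in Adarb2 lineage nuclei.

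To ask whether social defeat changed these genes, the 4 control and 4 stress pools were compared as pairs of the same diet or genotype, in each of 10 classes with at least 20 nuclei in every pool (edgeR quasi-likelihood test, adjusted over all genes of the class). Stress changed 3 members, each in 1 class: Slit2 was lower and Sema5b higher in cortical deep layer-like nuclei, and Epha10 was higher in subicular-like nuclei. These are 3 of 445 tests of a member in a class in all, where 0.144% of all such tests passed. In cortical deep layer-like nuclei 2 of 44 members tested passed, against 0.574% of genes, and in subicular-like nuclei 1 of 45, against 0.234%.

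Slit2 (GRCm39 chr5:48140480-48465075, plus strand) was at 185, 163, 176 and 156 CPM in the Control-Vehicle, Control-PLX5622, Con-IL-1R1+/+ and Con-nIL-1R1-/- pools, and at 61.1, 97.9, 66.6 and 75.4 CPM in their stress counterparts. Every stress pool was below every control pool, and the difference was -1.22 ± 0.16 on the log2 scale (SE, 4 pairs; edgeR adjusted p = 7.83e-04). Sema5b (chr16:35360820-35485102, plus strand) went the other way in these nuclei, from 40.7, 72.1, 62.6 and 76.2 CPM in controls to 125, 111, 159 and 132 CPM after stress. Again the groups did not overlap, with a log2 difference of 1.10 ± 0.19 (edgeR adjusted p = 0.00757). Sema5b is a transmembrane ligand that repels neurites, with thrombospondin repeats outside the cell.

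Beside these changes, the summed level of 6 CA2/3 markers in cortical deep layer-like nuclei was 207 to 263 CPM in controls and 129.6 to 149 CPM after stress. Of the 6, Cpne4 carried the difference (188 to 251 against 107 to 130.2 CPM), while Mndal, Map3k15, Iyd, Rgs14 and Amigo2 had 0 to 13.5 CPM in every pool. The class's own 7 markers summed to 4929 to 5883 CPM in controls and 4419 to 5734 CPM after stress. Hs3st4 made up most of this sum (4192 to 4941 and 3619 to 4803 CPM), and Rprm, Nxph4 and Ccn2 had at most 20.3 CPM. Control and stress medians were 226 and 356 CPM for Foxp2, 355 and 312 CPM for Tle4, and 185 and 199.5 CPM for Sulf1. The part of these levels in the result was not tested. With nuclei thinned to 500 UMIs, the log2 difference of Slit2 was -1.11 (edgeR adjusted p = 0.0961) and that of Sema5b was 0.35 (0.753). With 15 principal components the class grew from 2368 to 3998 nuclei, and the differences were -0.51 (0.209) for Slit2 and -0.23 (0.533) for Sema5b, the latter with reversed sign; without the vehicle pair Sema5b was at 0.93 (edgeR adjusted p = 0.0749).

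Epha10 (chr4:124774692-124811594, plus strand), an Eph receptor without kinase activity, rose in subicular-like nuclei from 223, 177, 207 and 146 CPM to 366, 439, 273 and 263 CPM, in the same order of pairs. Control and stress pools did not overlap, and the log2 difference was 0.75 ± 0.14 (edgeR adjusted p = 0.0425). In CA1-like nuclei it was of like size, 0.74 ± 0.15, but did not pass (edgeR adjusted p = 0.0657), with 76.3 to 135 CPM in controls and 127 to 261 CPM after stress. The call in subicular-like nuclei lies close to the threshold: it was lost without the vehicle (0.392), IL-1R1+/+ (0.153) or nIL-1R1-/- pair (edgeR adjusted p = 0.274), and without the pair term (0.239). With the members among the variable genes the only higher call after stress was Sema5b, so that of Epha10 in subicular-like nuclei was lost too. In these nuclei 7 cortical deep layer markers summed to 601 to 1187 CPM in controls and 404 to 687 CPM after stress. The 5 subicular markers summed to 133 to 209.6 and 164 to 328 CPM, mostly from Fn1 (121 to 196 and 143 to 309 CPM). The part of both lists in the result was not tested.

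**Figure D3:**
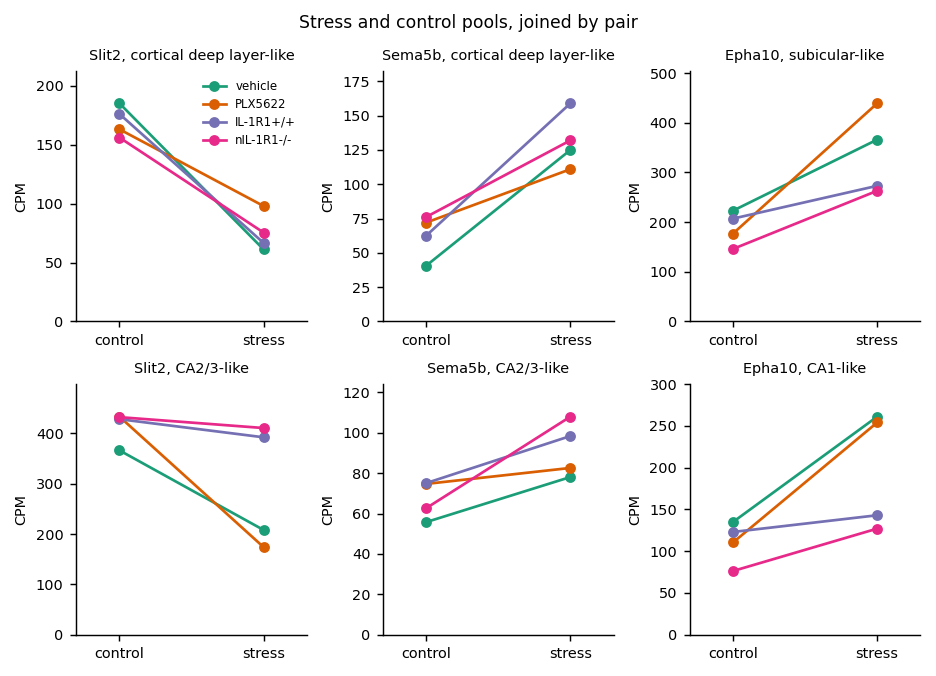
CPM of Slit2, Sema5b and Epha10 in control and stress pools, 1 line per pair (vehicle, PLX5622, IL-1R1+/+, nIL-1R1-/-), in the class that passed (top) and in another class (bottom). In the top row every line runs the same way; in CA2/3-like nuclei Slit2 goes from 366 to 208 and from 433 to 174 CPM in the diet pairs but from 428 to 392 and from 432 to 410.4 CPM in the genotype pairs.

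The start regions of these 3 genes are shown because they carry the stress differences, from RefSeq promoters of build GRCm38.p6, 250 bases before to 50 bases after the start, each on the plus strand. Capitals mark the TATA box (TATAAA) and the GC box (GGGCGG, or CCGCCC on the other strand), searched on both strands and not overlapping each other.
Slit2, chr5:47982905-47983204: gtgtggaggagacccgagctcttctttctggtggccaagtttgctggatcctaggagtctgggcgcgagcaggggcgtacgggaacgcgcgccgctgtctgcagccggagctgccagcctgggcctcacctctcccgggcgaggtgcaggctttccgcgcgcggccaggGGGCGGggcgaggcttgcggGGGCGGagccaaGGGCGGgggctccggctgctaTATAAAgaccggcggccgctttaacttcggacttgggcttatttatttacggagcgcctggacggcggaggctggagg
Sema5b, chr16:35541112-35541411: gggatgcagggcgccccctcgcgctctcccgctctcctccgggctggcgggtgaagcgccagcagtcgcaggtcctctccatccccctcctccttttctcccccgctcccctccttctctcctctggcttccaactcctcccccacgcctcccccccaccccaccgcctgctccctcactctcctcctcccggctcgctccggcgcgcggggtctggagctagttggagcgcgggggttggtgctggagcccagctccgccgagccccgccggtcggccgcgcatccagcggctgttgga
Epha10, chr4:124881535-124881834: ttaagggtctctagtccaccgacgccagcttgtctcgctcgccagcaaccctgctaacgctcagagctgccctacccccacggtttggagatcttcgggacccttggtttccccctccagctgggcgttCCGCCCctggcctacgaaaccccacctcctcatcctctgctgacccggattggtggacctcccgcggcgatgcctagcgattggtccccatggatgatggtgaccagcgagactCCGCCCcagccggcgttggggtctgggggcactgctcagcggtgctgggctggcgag

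The Slit2 window holds 1 TATA box, 28 bases before the start, and 3 GC boxes, the Epha10 window 2 GC boxes, and the Sema5b window neither motif. Of 32851 promoters of the same length, 13.6% held a TATA box and 35.7% a GC box. A promoter was found for 43 of the 51 genes, and 32 of these 43 held a GC box. Core letters of stress-related elements were searched as well. AGAACA, from the glucocorticoid response element, was in 3 of the 43 and in 19% of all promoters, and TGACG, from the cAMP response element, was in 10 of the 43 and in 20.8% of all. The 3 windows shown hold neither, on either strand, which says only that these letters are not in them. The GC share of the 3 windows was 68%, 73% and 65.3%, against a median of 52.7% over all promoters.

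Outside the classes where they passed, the 3 genes kept their direction in most classes without passing. Slit2 was lower after stress in 10 of 10 classes, with log2 differences from -1.22 to -0.12. The share of all genes that kept 1 direction was not counted. In OPC-like, oligodendrocyte-like and astrocyte-like nuclei the Slit2 medians (122, 134 and 122 CPM) were below the whole-pool 165 CPM and are read as background. In CA2/3-like nuclei, its leading class, it was at 366, 433, 428 and 432 CPM in controls and at 208, 174, 392 and 410.4 CPM after stress, so the diet pairs carried most of the difference (-0.56 ± 0.17, edgeR adjusted p = 0.14). Epha10 and Sema5b were each higher in 9 of 10 classes, with medians of 0.37 and 0.29 on the log2 scale. Epha10 was below its whole-pool 136 CPM in OPC-like, oligodendrocyte-like and astrocyte-like nuclei. Sema5b was below its whole-pool 59.3 CPM in oligodendrocyte-like and astrocyte-like nuclei. These levels are read as background. Sema5b was lower in DG-like nuclei (-0.33 ± 0.14, edgeR adjusted p = 0.37). Since classes of a pool share neuronal RNA, they are not independent of each other.

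Several members changed little in each class but in the same direction across classes, and were picked here after their values were seen. Slit3, Ntng1, Dcc, Plxna4, Epha3 and Epha6 were lower in 10 of 10 classes, with medians over classes of -0.14, -0.34, -0.38, -0.18, -0.33 and -0.32 on the log2 scale, and none of them passed in a class. The share of all genes that kept 1 direction over the classes was not counted. Each of these genes is long, from 321 kb (Epha3) to 1097 kb (Dcc). The 10 classes include OPC-like, oligodendrocyte-like and astrocyte-like nuclei. There the medians of Slit3, Ntng1, Plxna4, Epha3 and Epha6 were below their whole-pool 1759, 327, 1023, 176 and 2186 CPM and are read as background. The same holds for Dcc in oligodendrocyte-like (1015 CPM) and astrocyte-like nuclei (893 CPM), against its whole-pool 1168 CPM. Dcc in CA2/3-like nuclei had a median of 2175 CPM in controls (1826 to 2375) and 1591 CPM after stress (1220 to 2019), which overlap. Ntng1 did not overlap in OPC-like nuclei, with 183 to 329 CPM in controls and 126 to 139.9 CPM after stress (-0.85 ± 0.20, edgeR adjusted p = 0.105), but these levels are below or near the whole-pool 327 CPM and are read as background. Slit1 was at 722 to 837 CPM in control and 926 to 1115 CPM in stress pools of CA2/3-like nuclei, also apart (0.36 ± 0.12, edgeR adjusted p = 0.156). Unc5a, Ephb1, Sema5b and Epha10 were higher in 9 of 10 classes. For Unc5a, Sema5b and Epha10 these include glial classes below their whole-pool 108, 59.3 and 136 CPM.

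Counted over classes, members lay below all genes after stress. The median log2 difference of the members was below 0 in each of the 10 classes, from -0.02 in thalamic or midbrain-like to -0.24 in astrocyte-like nuclei, and was -0.10 over all 445 tests, against 0.00 for all genes. At an unadjusted p under 0.05, 88 of 445 (19.8%) were lower and 39 (8.76%) higher, against 5.17% lower and 6.38% higher over all 94542 tests. Members are long genes, with a median length of 156 kb. Over all genes of at least that length the median was also -0.10, with 14.3% lower and 3.52% higher at that p. Among the members, those at least that long had a median of -0.17 (65 of 243 tests lower), and the shorter had a median of 0.04 (23 of 202 lower and 26 higher). The part of gene length in the members' difference was not tested further.

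The shift was not equal in the 4 pairs. Over the 10 classes, the median log2 ratio of stress to control was -0.21 for the members in the PLX5622 pair (243 of 375 ratios below 0), -0.07 in the vehicle pair (236 of 438), -0.04 in the nIL-1R1-/- pair (235 of 430) and 0.04 in the IL-1R1+/+ pair (200 of 429). For genes of at least the median member's length, the same medians were -0.17, -0.14, -0.03 and -0.01. The pairs of the diet experiment are the shallower ones, and depth and experiment cannot be told apart.

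**Figure D4:**
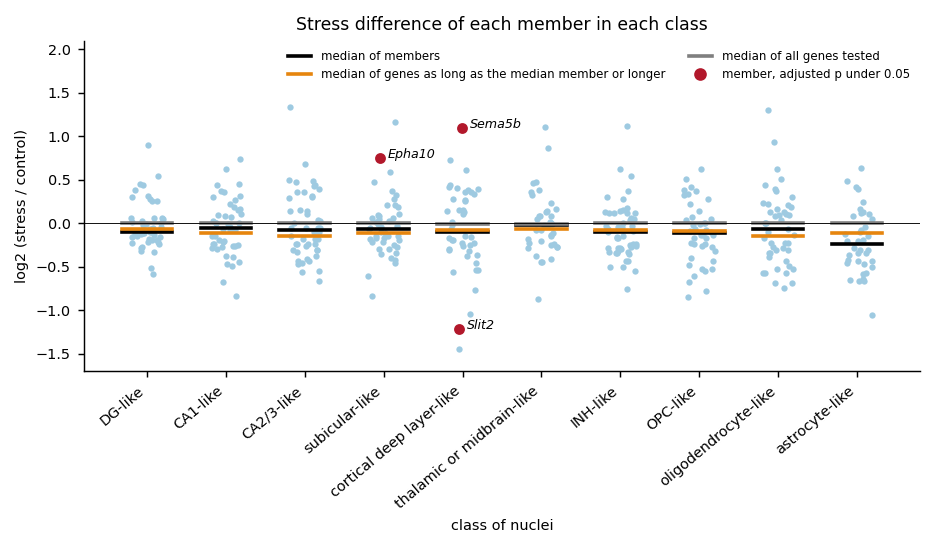
Log2 difference of stress from control for each member (points) in 10 classes, with bars for the median of the members (black), of genes at least as long as the median member (orange) and of all genes tested (grey). Red points are the 3 that passed an adjusted p of 0.05; black bars lie at or below the grey bars in every class.

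The PLX5622 diet was compared with vehicle chow to ask whether loss of microglia altered the members. None passed in any class (0 of 445, against 0.0180% of all tests; edgeR, with 0 by DESeq2). At an unadjusted p under 0.05, 22 were higher and 14 lower (4.94% and 3.15%), against 3.18% and 2.02% of all tests. The smallest p were those of Sema5a and Ephb1 in CA1-like nuclei. Sema5a was at 24.7 CPM in Control-Vehicle and 39 CPM in Stress-Vehicle, and at 64.5 and 56.9 CPM in the PLX5622 pools, a log2 difference of 1.02 ± 0.25 (edgeR adjusted p = 0.187). Ephb1 was at 33.1, 49.6, 79.6 and 70.9 CPM in the same order, a difference of 0.95 ± 0.24 (0.187). Without Stress-PLX5622 both passed, at 1.28 for Sema5a (edgeR adjusted p = 0.00642) and 1.25 for Ephb1 (0.00372), and likewise in the diet experiment alone. Both genes are higher in other classes, and CA1-like nuclei of the PLX5622 pools had a median of 547 and 529 UMIs, against 2383 and 1007 in the vehicle pools. Plxna1 in oligodendrocyte-like nuclei was at 80.2 and 112 CPM under vehicle and 35.6 and 53.9 CPM under PLX5622 (-1.01 ± 0.30, edgeR adjusted p = 0.682). Its median in this class, 53.6 CPM, was below the whole-pool 65.9 CPM, so it is read as background.

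Between genotypes 1 member passed of 445 tests, against 0.0444% of all tests. Ntn1 was higher in thalamic or midbrain-like nuclei of nIL-1R1-/- mice (1 of 38 members, against 0.749% of genes in the class), at 183 and 172 CPM in Con-nIL-1R1-/- and Stress-nIL-1R1-/- and 6.48 and 33.9 CPM in Con-IL-1R1+/+ and Stress-IL-1R1+/+. The log2 difference was 3.89 ± 0.68 (edgeR adjusted p = 0.0105). The class rests on 22 and 30 nuclei with 30 and 17 UMIs of Ntn1 in the nIL-1R1-/- pools, and on 1556 and 81 nuclei with 62 and 11 UMIs in the IL-1R1+/+ pools. The 6 thalamic or midbrain markers summed to 1073 and 585 CPM in the former and 1703 and 785 CPM in the latter, and the part of this in the result was not tested. Without Con-IL-1R1+/+ the difference was 2.31 (edgeR adjusted p = 0.43), and without Con-nIL-1R1-/- it was 2.76 (0.547). The next members did not pass. Ephb1 in OPC-like nuclei was at 417 and 441 CPM in IL-1R1+/+ and 189.9 and 249.7 CPM in nIL-1R1-/- pools (-0.98 ± 0.25, edgeR adjusted p = 0.474), and passed without Stress-nIL-1R1-/- (-1.17, adjusted p = 0.00692). Srgap1 in astrocyte-like nuclei was at 236 and 201 CPM against 106 and 108 CPM (-1.01 ± 0.27, edgeR adjusted p = 0.459). Its median in this class, 107 CPM, was not above the whole-pool 111 CPM, so it is read as background.

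To ask whether the response to stress depended on neuronal IL-1R1, the stress difference of the nIL-1R1-/- pair was compared with that of the vehicle and IL-1R1+/+ pairs, in a fit with 1 residual degree of freedom. Slit3 and Slit1 passed in INH-like nuclei (2 of 51 members, against 0.666% of genes, and 2 of 465 tests over classes, against 0.195%). Slit3 was at 1284 CPM in Con-nIL-1R1-/- and 578 CPM in Stress-nIL-1R1-/-, but at 618 and 624 CPM in the IL-1R1+/+ pools and 1036 and 832 CPM in the vehicle pools (log2 difference of differences -1.01 ± 0.24, edgeR adjusted p = 0.0111). Slit1 was at 266 and 163 CPM in the nIL-1R1-/- pools, 159 and 165 CPM in the IL-1R1+/+ pools and 259 and 317 CPM in the vehicle pools (-0.90 ± 0.23, edgeR adjusted p = 0.0268). In both inhibitory lineages Slit3 was higher in Con-nIL-1R1-/-, at 1478 against 685 CPM after stress in the Lhx6 lineage and 726 against 391 CPM in the Adarb2 lineage.

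Con-nIL-1R1-/- had the highest Slit3 of the 8 pools, whereas its Slit1 was close to that of the vehicle pools and the low control was Con-IL-1R1+/+. In other genes of its INH-like nuclei, Con-nIL-1R1-/- had the lowest summed level of the 10 INH markers (9112 CPM, against 9399 to 13853 in the other pools), and the highest of the cortical deep layer list (859 against 393 to 768), the CA2/3 list (386 against 256 to 321) and the CA1 list (419 against 287 to 381 CPM). Over nuclei of all classes, Scrublet's own threshold marked 22.9% of this pool as doublets and at most 3 nuclei in any other pool. Slit3 was highest in this pool in oligodendrocyte-like nuclei too, at 2219 CPM against 1198 to 1912. The part of these levels in the result was not tested. With nuclei thinned to 500 UMIs the differences were -0.74 for Slit3 (edgeR adjusted p = 0.717) and -1.23 for Slit1 (0.451).

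**Figure D5:**
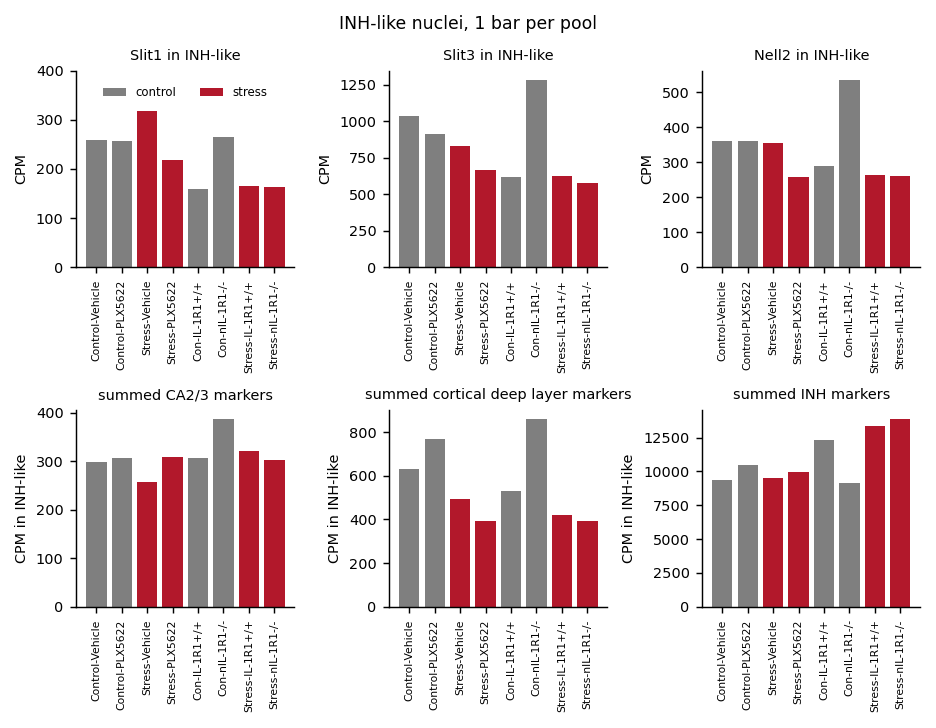
CPM per pool in INH-like nuclei (grey, control; red, stress) of Slit1, Slit3 and Nell2 (top) and of summed CA2/3, cortical deep layer and INH markers (bottom). Con-nIL-1R1-/- has the tallest bar for Slit3 (1284), Nell2 (535), CA2/3 (386) and deep layer markers (859), and the shortest for INH markers (9112).

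The third member by p did not pass: Efna5 in astrocyte-like nuclei went from 35.4 to 162 CPM in the nIL-1R1-/- pair and from 227 to 150.4 CPM in the IL-1R1+/+ pair (2.44 ± 0.58, edgeR adjusted p = 0.0644). Its median in this class, 95.1 CPM, was below the whole-pool 149 CPM, so it is read as background. No member passed for stress by diet (0 of 465, against 0.223% of all tests; edgeR, no other tool was run). At an unadjusted p under 0.05, 3 were higher and 59 lower (0.645% and 12.7%), against 4.37% and 4.39% of all tests. The members' median difference of differences was -0.30, against -0.02 for all genes and -0.22 for genes at least as long as the median member. The smallest p were those of Efna5 in cortical deep layer-like, Unc5d in oligodendrocyte-like and Dcc in DG-like nuclei. Efna5 went from 138 to 235 CPM in the vehicle pair and from 163 to 70.9 CPM in the PLX5622 pair (-2.07 ± 0.46, edgeR adjusted p = 0.0901). Unc5d went from 232 to 199 and from 328 to 144 CPM (-1.31 ± 0.34, 0.0715), all below its whole-pool 470.3 CPM and so read as background, and Dcc from 961 to 718 and from 1353 to 721 CPM (-0.88 ± 0.22, edgeR adjusted p = 0.11).

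A list of 71 further genes of the pathway, among them other ligands and receptors and the downstream kinases and actin regulators, gave few calls as well. Of 504 tests in 10 classes (0.144% of all tests passed) stress raised 1, Chn2, a GTPase activator for Rac (β-chimaerin), in cortical deep layer-like nuclei. Chn2 was at 10.4, 15.2, 14.4 and 23.9 CPM in controls and 50.7, 13.5, 43.7 and 45.3 CPM after stress, so it was not higher in the PLX5622 pair (1.32 ± 0.29, edgeR adjusted p = 0.0393). It did not pass without the vehicle (0.264), IL-1R1+/+ (0.137) or nIL-1R1-/- pair (edgeR adjusted p = 0.053). Diet and genotype changed 0 of 504 by edgeR, against 0.0180% and 0.0444% of all tests. At an unadjusted p under 0.05, 8 were higher and 9 lower under PLX5622, against 3.18% and 2.02% of all tests, and 8 were higher and 6 lower in nIL-1R1-/- pools, against 1.37% and 1.39%. The stress difference depended on genotype for 2 of 528 (0.195% of all tests passed), Nell2 and Mical2. Nell2, a secreted ligand of Robo3, was at 535 and 261 CPM in the nIL-1R1-/- and 288 and 263 CPM in the IL-1R1+/+ pools of INH-like nuclei (-0.97 ± 0.23, edgeR adjusted p = 0.0118), the class of the Slit1 and Slit3 calls. Mical2, of a family of actin-oxidising enzymes known to act downstream of plexins, was at 559.6 and 275 CPM in OPC-like nuclei of the nIL-1R1-/- pools and 294 and 329.8 CPM in the IL-1R1+/+ pools (-1.26 ± 0.34, edgeR adjusted p = 0.0429; 0.06 with DESeq2 size factors). For stress by diet 1 of 528 passed (0.223% of all tests), Flrt2, an UNC5 ligand, in oligodendrocyte-like nuclei, which went from 91.7 to 87 CPM in the vehicle and from 135 to 43.1 CPM in the PLX5622 pair (-1.80 ± 0.42, edgeR adjusted p = 0.0337). Whole-pool levels of Mical2 and Flrt2 are not given, so whether these glial levels are background was not judged.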

How the data were processed

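Nuclei of 8 pools were sequenced as 4 sublibraries, each with nuclei of every pool. Pools were read from the authors' nuclei table and the text of the treatment protocol, since sample titles name only sublibraries. The authors deposited UMI counts per gene and nucleus, made with a build they name as mm39, and they analysed them with Seurat 4.1.1; the counts are not normalized. Nuclei over 20% mitochondrial UMIs were left out. The rest were clustered with scanpy 1.11.5 and leidenalg 0.10.2 (2000 variable genes without the 51 members, 30 principal components, 15 neighbours, resolution 1.0) into 29 clusters and named from marker lists. A cluster stayed unnamed without a listed marker among its top 10 genes, with under 3 markers detected, or, a rule set after the clusters were seen, with a median above 2.5 times the UMIs of its pools. Doublets were kept in the main fit and at most 6% of each pool, of highest Scrublet score, left out as an alternative.

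UMIs were summed per class and pool and tested with edgeR 4.0.16 (R 4.3.3; quasi-likelihood, TMM, filterByExpr), with the pair of pools and stress as terms, and p-values were adjusted (Benjamini-Hochberg) over all genes of the class, with 0.05 as threshold. The authors tested nuclei with MAST. Here the 3 mice of a pool cannot be separated, the pool is the replicate, and the p-values measure only the spread between pools. SE is the difference divided by the root of F. Pairs share a diet or genotype by design, and deviations of pools within pairs correlated from -0.0377 to 0.285. On simulated counts, 86 of 100 DG genes changed 2-fold and 50 of 100 changed 1.5-fold were recovered among 11872, with 10 false calls. For INH, 92 of 100 and 37 of 100 were recovered among 13288, with 5 false calls. The changed genes were drawn only from those above a set mean count, so recovery of genes with lower counts was not measured. The smaller cortical deep layer-like and subicular-like classes, where members passed for stress, were not simulated. Depth per pool limits low genes; no interval is given for counting error.

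The 51 genes and the lists were chosen with earlier results of these data known. Values per pool were given for members passing in a comparison (at most 8 a direction), for the 3 of smallest p where fewer passed, and for the 2 members per class with the highest ratio to the next class among those with 50 UMIs. Other pathway genes were named where they passed. Coordinates of genes are GRCm39 and promoters GRCm38.p6.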

Additional observations from a re-analysis of the deposited data

Results flagged for a closer look

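The difference of the stress response between pairs passed a test for 5 genes, 2 of them members. In INH-like nuclei the interaction with genotype was -1.01 for Slit3, -0.90 for Slit1 and -0.97 for Nell2 on the log2 scale, and in OPC-like nuclei it was -1.26 for Mical2. In each, the control pool of nIL-1R1-/- mice was above its stress pool, and the IL-1R1+/+ pair differed by less. For Flrt2 in oligodendrocyte-like nuclei the interaction with diet was -1.80, from a drop in the PLX5622 pair. All rest on a fit with 1 residual degree of freedom and on 1 pool per condition, and none passed with nuclei thinned to 500 UMIs, where the differences were -0.74 for Slit3, -1.23 for Slit1, -1.06 for Nell2, -0.68 for Mical2 and -1.0 for Flrt2. With DESeq2 size factors Mical2 did not pass either (edgeR adjusted p = 0.06).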

How the results depend on the processing

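Main counts of members called, over 10 classes, were 2 higher and 1 lower after stress. For the other settings the share of all genes called is not given, so their counts are not read as particular to the members. Higher calls after stress numbered 6 without the filter on low counts, 1 with the members among the variable genes, 1 with no replicate block, 10 in the genotype experiment only and 0 to 3 with a pair left out. Lower calls numbered 9 with DESeq2, 19 without the filter, 5 with 15 principal components, 3 with mitochondrial nuclei kept, 2 with a high-UMI cluster counted as DG (chosen after seeing the data), 4 in the genotype and 24 in the diet experiment only, and 1 to 5 with a pair left out (3 without the PLX5622 pair, 5 without the IL-1R1+/+ pair). Higher calls for diet, 0 in the main fit, were 3 with mitochondrial nuclei kept, 3 in the diet experiment only and 0 to 5 with a pool left out. For genotype, 1 higher call became 0 when thinned and 0 to 2 with a pool left out, and 0 lower calls became 0 to 4. Thinning moved the lower calls from 2 to 0 for stress by genotype and from 0 to 1 for stress by diet. Sema5b in cortical deep layer-like nuclei was reversed with 15 principal components (-0.23). Without the replicate block the call of Epha10 was lost (0.77, edgeR adjusted p = 0.239) and that of Chn2 too (0.0939). The cause of these changes was not tested. The leading class changed for 10 of 51 genes when thinned, 6 with the members among the variable genes, 16 with 15 principal components (8 of them because no Cajal-Retzius-like class was named there) and 2 with doublets left out. In thinned classes of the PLX5622 pools, shallow nuclei are left out, among them 570 of 1300 in CA1-like nuclei of Control-PLX5622.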
